A study of Mus musculus with 6 samples.

Results

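The RNF-named genes are the protein-coding genes whose symbol is Rnf followed by a number, for RING finger protein. Taken from the deposited gene table by symbol and biotype, with Rnf8, Rnf17 and Rnf212 left out by the rule, they came to 75 of the 26743 genes of the table. The rule also names Rnf126 as among the most significant decreases. All 75 carry the zinc ion binding annotation in that table, 41 are annotated with ligase activity and 30 with ubiquitin-protein ligase activity. The zinc annotation thus covers the whole set and the ligase terms only a part of it. RNA-seq of whole testis was made from 3 WT and 3 Trf2-/- male mice at 21 days of age, from total RNA depleted of ribosomal RNA. Trf2 is the TBP-related factor encoded by Tbpl1, and Trf2-/- marks mice homozygous for its inactivation. The libraries hold all cell types of the testis, somatic cells included. The comparison asked which genes changed expression when Trf2 was absent at the age when the first haploid spermatids appear.

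RING finger proteins fold around zinc ions, and most act as E3 ubiquitin ligases: the RING domain holds a ubiquitin-charged E2 enzyme beside a substrate and the ubiquitin is passed on. A ubiquitin chain can send a protein to the proteasome, while a single ubiquitin on a histone or a receptor changes its activity or location. In the testis ubiquitin ligases take part in meiosis, in the chromatin changes of spermatids and in the removal of proteins and organelles as sperm form.

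The targeted gene was low in each mutant library. Tbpl1 (ENSMUSG00000071359) had 8840, 7391 and 6119 reads in the WT mice and 1586, 1500 and 882 in the Trf2-/- mice, a log2 fold change of -2.27 ± 0.06 (standard error, n = 3 mice a genotype) and an edgeR adjusted p of 1.18e-06. The WT libraries held between 21582123 and 29859347 reads on genes and the Trf2-/- libraries between 15187062 and 24530489, so that 3 reads, taken as the detection floor for counting error, were worth 0.105 to 0.190 CPM, the unit of levels here. CPM are read counts relative to the library total, scaled by the trimmed mean of M values (TMM), fold changes are Trf2-/- against WT, and a gene passed the test when edgeR's quasi-likelihood test gave a Benjamini-Hochberg adjusted p under 0.05 over all 16924 genes tested.

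Of the 75 RNF-named genes, 70 passed the filter on low counts and were tested. Among them 19 were lower in Trf2-/- testis (27.1%, against 20.2% of all genes tested) and 8 were higher (11.4%, against 11.2% of all genes tested). The remaining 43 did not pass. The share of higher members therefore sat at that of all genes, and the share of lower members somewhat above it. Most changes were small: 46 of the 70 log2 fold changes lay within 0.25 of 0, and the median was -0.01 beside 0.04 over all genes tested. A change of at least 2-fold together with the adjusted p was found for 2 members, both lower (2.86%, against 4.3% of all genes tested), namely Rnf151 and Rnf125. Without Trf2-/- 2 there were 4, with Rnf112 and Rnf126 added, and without WT 2 there were 3, with Rnf112 added. No member was higher by 2-fold, by edgeR or by DESeq2 and with or without an adjusted p, and Rnf152 came nearest with a log2 fold change of 0.77 (0.609% of all genes tested were called higher at that size). The split between directions moved with the scaling. With library size alone in place of TMM, 14 members were lower and 22 higher, so that 38.9% of the called members were lower in place of 70.4%. The median of all genes moved from 0.04 to 0.13 and that of the members from -0.01 to 0.08. The shares of all genes called under that scaling, or without a mouse, are not given here. These moves are therefore not read as particular to the members. Of the 27 called members 22 kept their call under that scaling, and those that lost it were Rnf6, Rnf14, Rnf114, Rnf123 and Rnf167, each still with a negative log2 fold change.

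**Figure D1:**
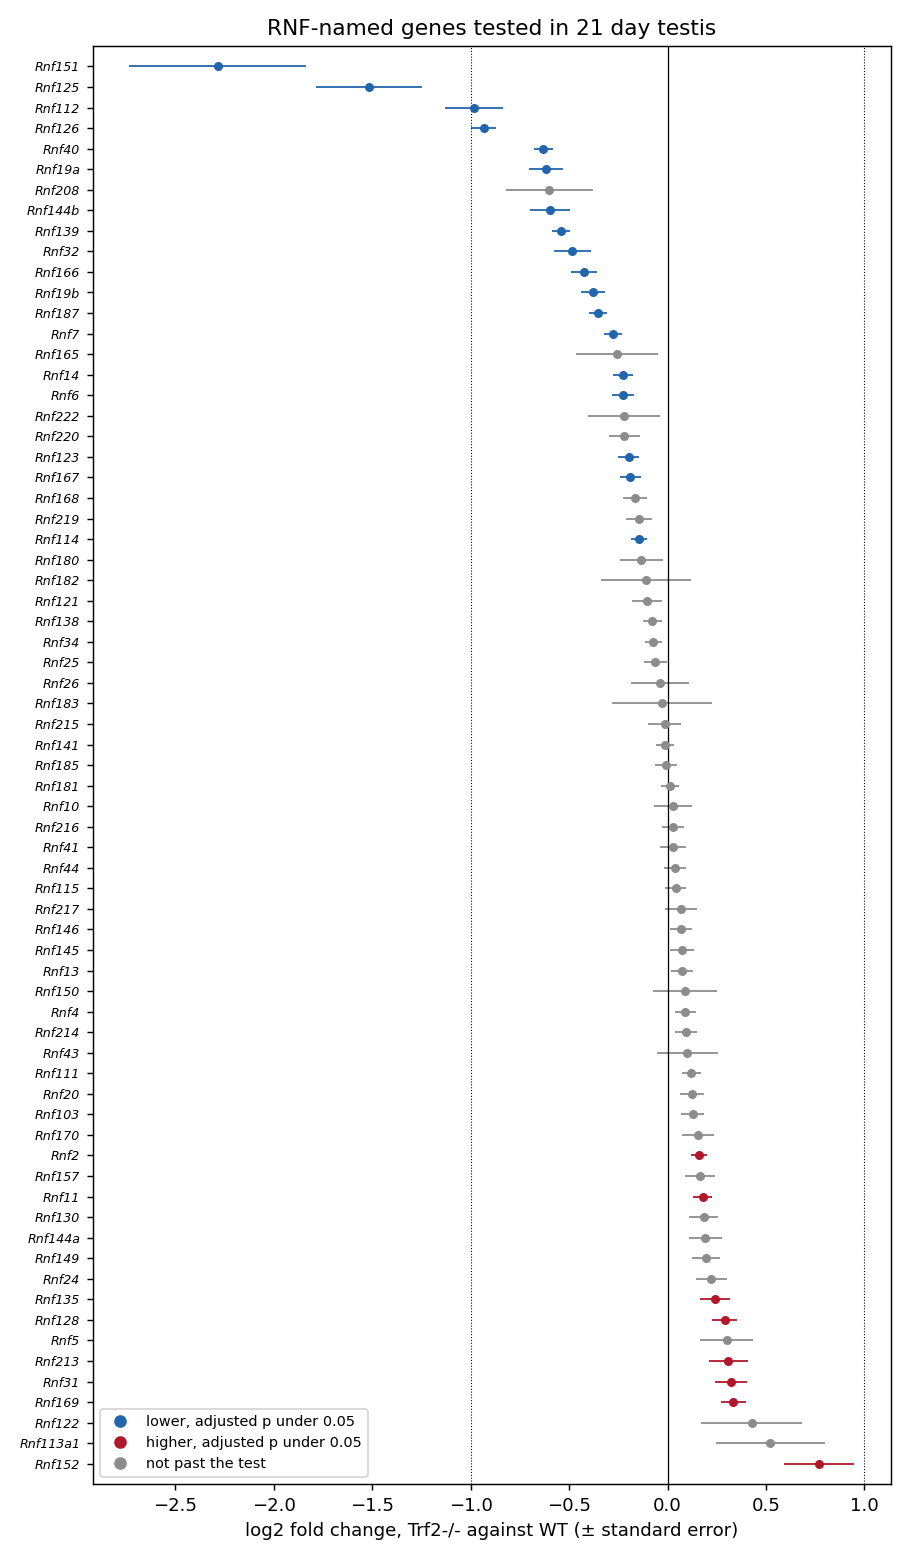
Log2 fold change, Trf2-/- against WT, of 69 of the 70 RNF-named genes tested (horizontal axis, bars are standard errors of the fit, dotted lines mark 2-fold), ordered from the largest decrease at the top. Blue points are 18 of the 19 lower and red points the 8 higher members past the adjusted p, and the lower end reaches -2.28 while the upper end reaches 0.77.

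Calls were more frequent among abundant members, as they were among all genes. Of the 20 members with a mean of at least 100 CPM, 11 were lower and 2 higher, and their log2 fold changes had a median of -0.18 and a median standard error of 0.05. Of the 2701 tested genes at that level, 38.5% were lower and 12.8% higher. Of the 36 members between 10 and 100 CPM, 6 were lower and 5 higher, with a median of 0.06 and a median standard error of 0.07, beside 20.3% lower and 15.2% higher of all tested genes at that level. In the 14 members under 10 CPM, 2 were lower and 1 higher, beside 12.7% and 5.85% of all tested genes at that level. Their median standard error of 0.21 meant that a change near the abundant members' median of -0.18 was not detectable at this depth. Larger changes could still pass. Per kilobase of gene length, the WT order was led by Rnf32 at 179.8 ± 3.7 CPM (SD, n = 3), then Rnf187 at 121.3 ± 3.3, Rnf181 at 105.7 ± 1.4, Rnf19b at 100.8 ± 1.3 and Rnf126 at 99.1 ± 3.0. The WT mice of Rnf19b and Rnf126 overlapped, while those of the others in this order did not. Rnf181 had almost the same level in both genotypes, with a log2 fold change of 0.01 ± 0.05, while the other 4 were lower in the mutants.

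**Figure D2:**
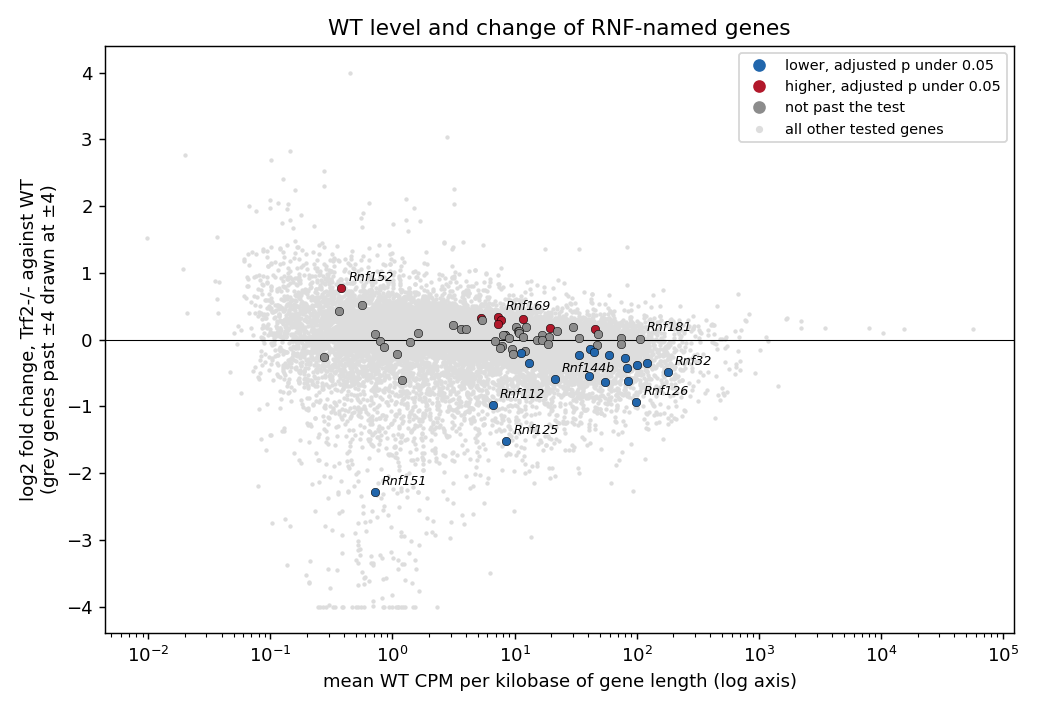
Mean WT level per kilobase of gene length (horizontal log axis, CPM) against log2 fold change (vertical axis) for the 70 RNF-named genes, over all 16924 tested genes in grey. Rnf126, at 99.1 CPM per kilobase and -0.93, lies below the other abundant members, and Rnf151, at 0.714 CPM per kilobase and -2.28, is the lowest point of the set.

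Whole testis does not tell fewer cells of a type from less RNA per cell. The marker lists of late germ cells were lower in the mutants, beside the lower members given below. All 6 pachytene spermatocyte markers were lower, a call made for 20.2% of all genes tested. Their log2 fold changes ran from -1.63 to -0.17 (median -0.88). Their summed level was 5326 to 5762 CPM in WT and 3407 to 4233 CPM in Trf2-/- mice. Of the 10 round spermatid markers 8 were lower (median -1.73), with sums of 77.5 to 80.9 CPM in WT and 33.3 to 48.3 CPM in Trf2-/- mice. Acr made up most of these sums, at 56.3 CPM in WT and 31.0 CPM in Trf2-/- mice (log2 fold change -0.85). Other markers rest on few reads: Spaca7, Acrv1 and Catsper4 averaged 0.0286, 0.0561 and 0.0550 CPM in Trf2-/- mice, under the detection floor. Of the 6 early spermatocyte markers 2 were higher, and their sums were 1238 to 1262 CPM in WT against 1411 to 1506 CPM in Trf2-/- mice. Higher calls, made for 11.2% of all genes tested, were found for 3 of 6 Sertoli markers (sums of 1509 to 1609 CPM in WT and 1709 to 1864 CPM in Trf2-/- mice) and for 5 of 8 macrophage markers (177 to 200 CPM and 202 to 399 CPM). They were found for 1 of 7 spermatogonial, 1 of 6 Leydig and 1 of 4 peritubular markers, and the sums of these 3 lists overlapped between genotypes, at 216 to 225 CPM in WT and 223 to 287 CPM in Trf2-/- mice, 181 to 360 CPM and 185 to 326 CPM, and 269 to 345 CPM and 338 to 389 CPM in that order. The part of these shifts in the values of the RNF-named genes was not tested.

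Rnf126 had the smallest p of any member, ranking 11 of 16924. The rule of the set names it as among the most significant decreases, so this rank was known beforehand and is no separate support. Rnf126 encodes a cytosolic E3 ligase that works with BAG6 to destroy hydrophobic proteins that failed to reach a membrane. The gene lies on chromosome 10 from 79221260 to 79229666, minus strand, in build NCBIM37, and shares no exonic bases with another gene. The WT mice had 161, 154 and 163 CPM and the Trf2-/- mice 78.3, 90.7 and 81.1 CPM. The genotypes were far apart, with the highest mutant well under the lowest WT mouse. The fall was 47.7%, a log2 fold change of -0.93 ± 0.06 (edgeR adjusted p = 0.000154), and from -1.01 to -0.90 when any mouse was left out. Rnf115, the closest relative of Rnf126 in sequence and also a BAG6 partner, had 43.9, 44.0 and 42.8 CPM in WT and 45.4, 43.3 and 46.0 CPM in Trf2-/- mice, with a log2 fold change of 0.04 ± 0.05 that did not pass the test (edgeR adjusted p = 0.571). The log2 ratio of Rnf126 to Rnf115 within a mouse went from 1.87 ± 0.06 in WT to 0.89 ± 0.15 in Trf2-/- (SD, n = 3), with no overlap (exact permutation p = 0.1, the smallest that 3 against 3 mice can give). The 250 bases before the start site of these related genes are shown because their RNA moved differently (RefSeq, GRCm38.p6, 5′ to 3′ on the gene's strand, chr10:79766953-79767202 minus strand for Rnf126 and chr3:96727361-96727610 plus strand for Rnf115). The motifs searched on either strand were the TATA box TATAAA, the cAMP response element TGACGTCA with its core TGACG, and the CCAAT box CCAAT. Neither window holds any of them, so no letters are in capitals.
Rnf126: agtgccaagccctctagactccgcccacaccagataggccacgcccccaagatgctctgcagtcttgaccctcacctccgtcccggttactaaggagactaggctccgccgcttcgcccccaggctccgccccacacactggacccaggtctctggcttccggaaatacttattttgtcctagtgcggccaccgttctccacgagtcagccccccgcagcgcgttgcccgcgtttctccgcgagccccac
Rnf115: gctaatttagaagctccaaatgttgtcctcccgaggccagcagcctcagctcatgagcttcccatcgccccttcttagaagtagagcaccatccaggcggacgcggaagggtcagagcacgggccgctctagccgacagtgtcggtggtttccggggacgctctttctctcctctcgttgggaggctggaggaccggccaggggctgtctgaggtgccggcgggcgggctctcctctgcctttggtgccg

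The BAG6 pathway around Rnf126 changed less. Of its 7 tested genes, 2 were lower (28.6%, against 20.2% of all genes tested) and 1 higher (14.3%, against 11.2%). The median log2 fold change was -0.11. Bag6, the chaperone that hands clients to Rnf126, was at 553 ± 36.6 CPM in WT and 455 ± 19.8 CPM in Trf2-/- (SD, n = 3), a log2 fold change of -0.28 ± 0.06 (edgeR adjusted p = 0.00701). Sgta, its co-chaperone, was lower by -0.18 ± 0.04 (edgeR adjusted p = 0.0145), a call lost without WT 2 or Trf2-/- 1 and with library size alone. Ubqln2, a ubiquitin-binding shuttle factor, was higher by 0.28 ± 0.09 (edgeR adjusted p = 0.0453), a call lost without any mouse other than WT 3. No other gene of the pathway passed.

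Of the E2 enzymes that feed RING ligases, 5 of 31 tested were lower (16.1%) and 4 higher (12.9%), shares near those of all genes tested (20.2% and 11.2%), with a median log2 fold change of -0.01. The largest decreases past the test were in Ube2u (-0.40 ± 0.09), in Ube2j2, an E2 of the endoplasmic reticulum (-0.32 ± 0.05), and in Cdc34, the E2 of cullin-RING ligases (-0.27 ± 0.05). The largest increases were in Ube2l6, the E2 of the ubiquitin-like modifier ISG15 (0.61 ± 0.12), Ube2e3 (0.25 ± 0.08) and Ube2g1 (0.23 ± 0.05). The edgeR call of Ube2e3 was lost without WT 2, WT 3 or any Trf2-/- mouse. Of the activating enzymes, Uba1 was higher by 0.18 ± 0.05 (edgeR adjusted p = 0.0185, lost without WT 1, WT 2 or Trf2-/- 1) and Uba6 had 0.18 ± 0.06 without passing (edgeR adjusted p = 0.0584).

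Germ cell linked members held the largest decrease. Rnf151, a RING protein described in spermatids and associated with the acrosome, was counted 31, 22 and 13 times in WT and 2, 4 and 5 times in Trf2-/- mice, which is 1.08, 0.843 and 0.624 CPM against 0.0794, 0.172 and 0.316 CPM. All WT mice were above all mutants, although the whole difference rests on few reads and 2 of the mutant libraries hold only 2 and 4 of them. The log2 fold change was -2.28 ± 0.45 (edgeR adjusted p = 0.00533), and from -2.74 to -1.89 when any mouse was left out. Rnf32, an abundant testis RING-H2 gene, had 332, 343 and 345 CPM in WT and 267, 260 and 201 CPM in Trf2-/- mice, with Trf2-/- 3 the lowest and no overlap, and a log2 fold change of -0.48 ± 0.09 (edgeR adjusted p = 0.00498). Rnf141, also known as the testis zinc finger protein Znf230, was at 89.1 to 91.5 CPM in WT and 88.6 to 90.7 CPM in Trf2-/- mice, with overlapping genotypes and a log2 fold change of -0.01 ± 0.04. Rnf133 and Rnf148, a pair of membrane RING genes expressed in the testis, were under the filter with 2, 4 and 3 reads and 3, 6 and 5 reads in WT against 4, 0 and 1 and 5, 3 and 2 in Trf2-/- mice. No direction can be read from counts of that size. The promoters of Rnf151 and Rnf32 are shown as those of the called germ cell linked members, with TGACG and CCAAT matches on either strand in capitals (RefSeq, GRCm38.p6, 250 bases upstream, 5′ to 3′ on the gene's strand, chr17:24718058-24718307 minus strand and chr5:29195743-29195992 plus strand). CCAAT stands 34 bases before the start site of Rnf151, read there as its complement, and TGACG 146 bases before that of Rnf32.
Rnf151: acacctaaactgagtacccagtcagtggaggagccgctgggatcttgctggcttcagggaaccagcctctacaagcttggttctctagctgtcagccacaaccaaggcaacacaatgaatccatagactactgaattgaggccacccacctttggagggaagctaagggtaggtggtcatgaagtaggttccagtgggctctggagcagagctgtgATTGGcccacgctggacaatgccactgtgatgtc
Rnf32: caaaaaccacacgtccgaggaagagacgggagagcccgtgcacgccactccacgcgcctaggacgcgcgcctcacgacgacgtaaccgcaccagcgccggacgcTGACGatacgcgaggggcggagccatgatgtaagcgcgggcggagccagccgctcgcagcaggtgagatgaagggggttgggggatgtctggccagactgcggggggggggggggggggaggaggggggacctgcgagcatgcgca

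**Figure D3:**
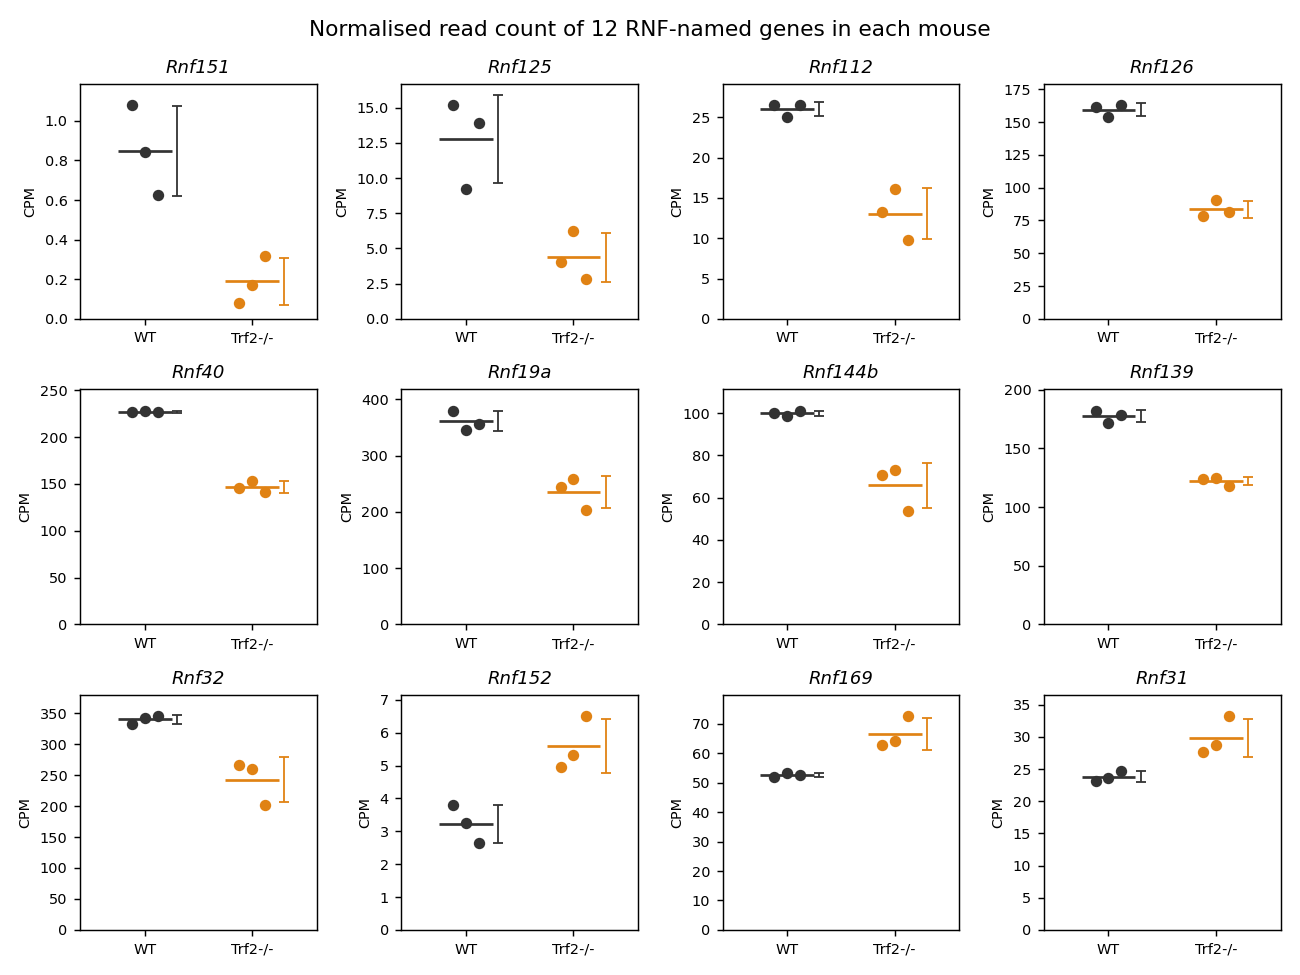
Level in CPM (vertical axis from 0, a scale for each gene) of 12 RNF-named genes in the 3 WT and 3 Trf2-/- mice, with a point for each mouse, a line at the mean and a bar of 1 SD at its side. The first 9 genes are lower and Rnf152, Rnf169 and Rnf31 higher in the mutants. In each panel the genotypes do not overlap, which was a condition of the lists of largest changes that hold these genes. It held for all 27 called members.

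Of 7 chromatin and DNA damage ligases tested, Rnf40 was lower and Rnf169 and Rnf2 were higher (median log2 fold change 0.12). That is 14.3% lower and 28.6% higher, against 20.2% and 11.2% of all genes tested. Rnf40 and Rnf20 form the dimer that adds a single ubiquitin to histone H2B, a mark of transcribed genes. Rnf40 had 227, 228 and 227 CPM in WT and 146, 153 and 141 CPM in Trf2-/- mice, so that the WT mice were nearly identical and every mutant lay far below them. Its log2 fold change was -0.63 ± 0.05 (edgeR adjusted p = 0.000176, rank 24 by p). Rnf20 had 151, 172 and 161 CPM in WT and 166, 182 and 180 CPM in Trf2-/- mice, with overlap and a log2 fold change of 0.12 ± 0.06 that did not pass (edgeR adjusted p = 0.149). In CPM, Rnf40 exceeded Rnf20 in each WT mouse and Rnf20 exceeded Rnf40 in each Trf2-/- mouse. The log2 ratio of Rnf20 to Rnf40 went from -0.50 ± 0.09 to 0.26 ± 0.09 (SD, n = 3, exact permutation p = 0.1, the smallest possible). CPM do not correct for gene length, and Rnf20 is the longer gene, at 7288 against 4154 bases. Per kilobase, Rnf40 stayed above Rnf20, at 54.7 against 22.1 CPM in WT and 35.3 against 24.1 CPM in Trf2-/- mice. Their promoters are shown because the subunits of 1 dimer moved apart, with the motif matches in capitals (RefSeq, GRCm38.p6, 250 bases upstream, 5′ to 3′, plus strand, chr7:127588448-127588697 for Rnf40 and chr4:49638375-49638624 for Rnf20). The window of Rnf40 holds TGACG at 213 and CCAAT at 86 and 6 bases before the start site, with 57.2% G and C. That of Rnf20 holds TATAAA as its complement at 41 bases, with 40% G and C. A gene can have more than 1 window, with 77 windows for the 59 members that have any. The window shown for Rnf20 holds 1 CpG (C followed by G), beside 13 for Rnf40. Whether it lies at the main start site of Rnf20 was not tested.
Rnf40: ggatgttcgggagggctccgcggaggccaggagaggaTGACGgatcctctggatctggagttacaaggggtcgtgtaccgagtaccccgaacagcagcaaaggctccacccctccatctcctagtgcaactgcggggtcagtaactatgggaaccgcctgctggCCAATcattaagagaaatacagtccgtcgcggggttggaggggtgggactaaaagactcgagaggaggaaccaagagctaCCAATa
Rnf20: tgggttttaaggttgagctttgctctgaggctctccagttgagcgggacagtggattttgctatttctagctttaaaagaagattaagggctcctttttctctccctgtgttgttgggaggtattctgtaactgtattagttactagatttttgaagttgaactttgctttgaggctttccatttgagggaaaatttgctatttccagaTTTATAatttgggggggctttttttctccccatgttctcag

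Of the higher chromatin members, Rnf169, a reader of ubiquitinated histone H2A at DNA breaks, had 51.9, 53.4 and 52.7 CPM in WT and 62.8, 64.1 and 72.7 CPM in Trf2-/- mice, without overlap. Its log2 fold change was 0.33 ± 0.07 (edgeR adjusted p = 0.00508), and it was the only higher member whose call stood under every alternative tried. Rnf2, the catalytic RING subunit of Polycomb repressive complex 1, was at 135 to 141 CPM in WT and 153 to 156 CPM in Trf2-/- mice, a log2 fold change of 0.16 ± 0.04 (edgeR adjusted p = 0.0203). That call was lost without WT 1, WT 2, Trf2-/- 1 or Trf2-/- 2. Rnf168, which extends ubiquitin on H2A at breaks, had a log2 fold change of -0.16 ± 0.06, and the SUMO-targeted ligases Rnf4 and Rnf111 had 0.09 ± 0.05 and 0.12 ± 0.05, none of them past the test.

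The RBR ligases carry a pair of RING domains around a linking domain and take ubiquitin onto themselves before the substrate. Among 8 tested, 4 were lower (50%) and 1 higher (12.5%), with a median log2 fold change of -0.10. Of all genes tested, 20.2% were lower and 11.2% higher, and 38.5% were lower among those with a mean of at least 100 CPM. The summed level of the RBR ligases was 1099 to 1142 CPM in WT and 854 to 932 CPM in Trf2-/- mice. Rnf19a, or Dorfin, was the most abundant of them in CPM with 380, 346 and 357 in WT and 245, 258 and 203 in Trf2-/- mice, a log2 fold change of -0.62 ± 0.08 (edgeR adjusted p = 0.00108). Its paralog Rnf19b had 292, 285 and 292 CPM in WT and 222, 240 and 204 CPM in Trf2-/- mice, and -0.38 ± 0.06 (edgeR adjusted p = 0.00193). For both genes Trf2-/- 3 was the lowest mouse and the genotypes were apart. Rnf144b, a ligase induced by p53, had 99.8, 98.8 and 101 CPM in WT and 70.8, 73.1 and 53.5 CPM in Trf2-/- mice, and -0.60 ± 0.10 (edgeR adjusted p = 0.00266), while its paralog Rnf144a had 0.19 ± 0.08 and did not pass (edgeR adjusted p = 0.111). Rnf14, a coactivator of the androgen receptor, was lower by -0.23 ± 0.05 (edgeR adjusted p = 0.00799). Rnf31, the catalytic subunit of the complex that builds linear ubiquitin chains, was the higher member, with 23.2, 23.6 and 24.7 CPM in WT and 27.6, 28.7 and 33.2 CPM in Trf2-/- mice. Its log2 fold change was 0.32 ± 0.08 (edgeR adjusted p = 0.0168, lost without WT 1 or WT 2). Rnf216 and Rnf217, at 0.03 ± 0.06 and 0.07 ± 0.08, did not pass.

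Of the ligases in the membrane of the endoplasmic reticulum, 1 of 8 was lower (12.5%, against 20.2% of all genes tested, median log2 fold change 0.03). It was Rnf139, or TRC8, which removes sterol-regulated and misfolded membrane proteins. It had 182, 172 and 179 CPM in WT and 124, 125 and 118 CPM in Trf2-/- mice, a tight spread in both genotypes. The log2 fold change was -0.54 ± 0.05 (edgeR adjusted p = 0.000282, rank 58 by p). Rnf5 and Rnf185, paralogs that act on misfolded membrane proteins, had 0.30 ± 0.13 (edgeR adjusted p = 0.118) and -0.01 ± 0.05. Rnf145, a sterol-responsive relative of Rnf139, had 0.07 ± 0.06, Rnf103 0.13 ± 0.06, Rnf170 0.15 ± 0.08, Rnf121 -0.10 ± 0.08 and Rnf26 -0.04 ± 0.15, and none of these passed.

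The Rnf114 family, small ligases with a RING and further zinc fingers, had 3 of 4 members lower (75%, against 20.2% of all genes tested). The median log2 fold change of the family was -0.28. Rnf125, a ligase that marks the RNA sensor RIG-I for destruction, had 15.2, 9.23 and 13.9 CPM in WT and 4.05, 6.26 and 2.84 CPM in Trf2-/- mice. WT 2 and Trf2-/- 2 were the closest mice and the genotypes did not overlap. The log2 fold change was -1.52 ± 0.27 (edgeR adjusted p = 0.00336), from -1.87 to -1.31 when any mouse was left out. Rnf166 was at 150 to 154 CPM in WT and 103 to 124 CPM in Trf2-/- mice, and -0.42 ± 0.06 (edgeR adjusted p = 0.00171). Rnf114, annotated with spermatogenesis in the table, was lower by only -0.14 ± 0.04 (edgeR adjusted p = 0.0291), and that call was lost without any 1 of the 3 WT mice or Trf2-/- 1, and with no filter on low counts. Rnf138, which acts in the repair of DNA breaks, had -0.08 ± 0.05 and did not pass, and 0.02 with library size alone.

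Members with a role in innate immunity were split. Rnf125 was lower, and Rnf31, Rnf135 and Rnf213 were higher. That is 25% lower and 75% higher of 4 tested, against 20.2% and 11.2% of all genes tested. Rnf213, a giant ligase with an ATPase motor that interferon induces, had 168, 207 and 225 CPM in WT and 229, 252 and 262 CPM in Trf2-/- mice. WT 3 and Trf2-/- 1 were close, at 225 and 229 CPM, and the log2 fold change was 0.31 ± 0.10 (edgeR adjusted p = 0.0432, lost without any mouse other than WT 3), with values from 0.19 to 0.40 when any mouse was left out. Rnf135, or Riplet, the activating ligase of RIG-I, was at 15.2 to 16.1 CPM in WT and at 17.8 CPM or more in Trf2-/- mice, and 0.24 ± 0.08 (edgeR adjusted p = 0.0401, lost without any 1 of the 6 mice, by DESeq2 and with no filter on low counts). Of 9 tested interferon response genes, 0 passed edgeR's adjusted p, 4 were higher at an unadjusted p under 0.05 and 1 was higher by DESeq2. Their sums were 77.5 to 89.1 CPM in WT and 94.9 to 117 CPM in Trf2-/- mice, and like the macrophage sums given above they were higher in every mutant than in any WT mouse. Their part in the values of those 2 genes was not tested.

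The PA-TM-RING proteins are single-pass ligases of endosomes and the cell surface, with a protease-associated domain outside the membrane. Of 7 tested, 1 was lower and 1 higher (14.3% each, against 20.2% and 11.2% of all genes tested). The median log2 fold change was 0.10. Rnf128, or GRAIL, known for keeping T cells unresponsive, was at 25.3 to 28.5 CPM in WT and 32.1 to 33.1 CPM in Trf2-/- mice, a log2 fold change of 0.29 ± 0.07 (edgeR adjusted p = 0.0102). Rnf167, of lysosomes and endosomes, was lower by -0.19 ± 0.05 (edgeR adjusted p = 0.0264, lost without WT 1, WT 2 or Trf2-/- 1), while its paralog Rnf13 had 0.07 ± 0.05. Rnf43, a negative regulator of Wnt receptors, had 0.10 ± 0.15, Rnf130 0.18 ± 0.07, Rnf149 0.19 ± 0.07 and Rnf150 0.09 ± 0.16, none past the test.

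**Figure D4:**
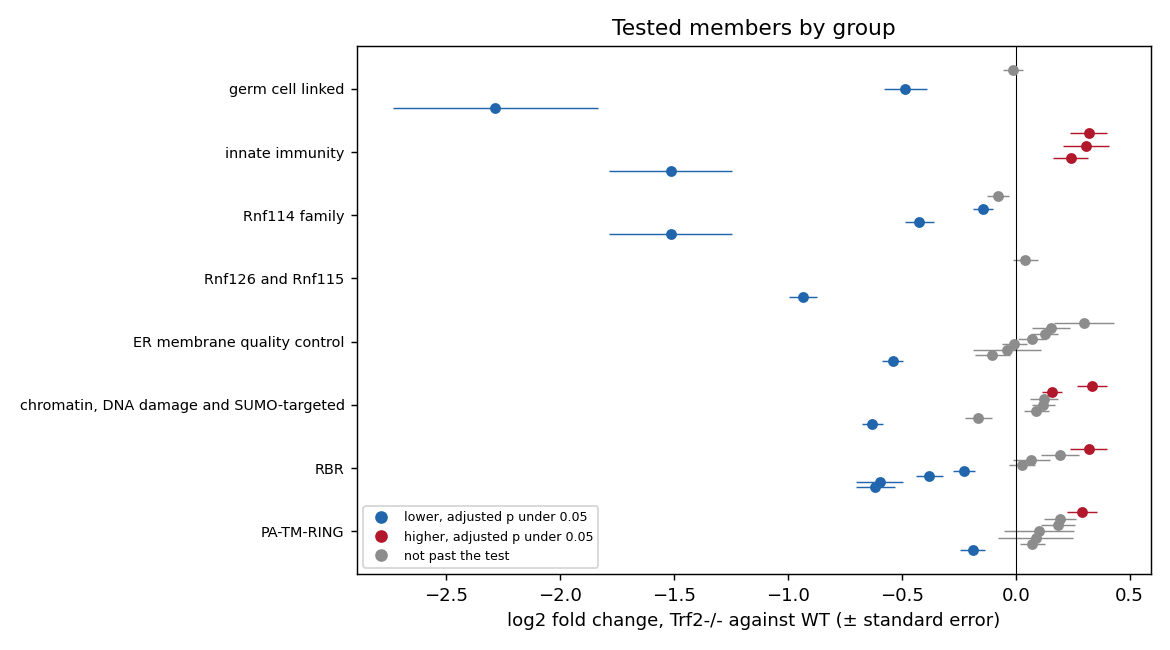
Log2 fold change, Trf2-/- against WT, with standard errors (horizontal axis), of the tested RNF-named genes in 8 role groups (vertical axis), blue where lower, red where higher and grey where not past the adjusted p. The 3 called members of the Rnf114 family lie from -1.52 to -0.14, Rnf40 lies alone at -0.63 in the chromatin group, and Rnf125 and Rnf31 each appear in 2 groups.

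Further members past the test belonged to none of these groups. Rnf112, a RING protein with a GTPase domain known from neurons, had 26.5, 25.1 and 26.5 CPM in WT and 13.3, 16.1 and 9.80 CPM in Trf2-/- mice. The mutants lay near 50% of WT and varied more than the WT mice, and the log2 fold change was -0.98 ± 0.15 (edgeR adjusted p = 0.00147), from -1.17 to -0.82 when any mouse was left out. Rnf187, a coactivator of the AP-1 factor c-Jun, was at 229 to 242 CPM in WT and 180 to 194 CPM in Trf2-/- mice (-0.35 ± 0.05). Rnf7, the RING subunit of cullin-5 ligases, was at 105 to 106 CPM against 83.8 to 89.2 CPM (-0.28 ± 0.05). Rnf6, a regulator of the androgen receptor (-0.23 ± 0.05), and Rnf123, a ligase for the cell cycle inhibitor p27 (-0.20 ± 0.05), were also lower. The calls of Rnf112, Rnf187 and Rnf7 stood under every alternative tried. The call of Rnf6 was lost without WT 1, WT 2 or Trf2-/- 1, and that of Rnf123 without WT 1 or Trf2-/- 2.

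Among the higher members, Rnf152, a lysosomal ligase that restrains mTORC1 through RagA, had the largest change with 3.80, 3.26 and 2.64 CPM in WT and 4.96, 5.32 and 6.51 CPM in Trf2-/- mice. The genotypes did not overlap, and the log2 fold change was 0.77 ± 0.18 (edgeR adjusted p = 0.0110). Rnf11, a small adaptor of the A20 ubiquitin-editing complex, was at 80.6 to 83.9 CPM in WT and 91.1 to 95.5 CPM in Trf2-/- mice (0.18 ± 0.05, edgeR adjusted p = 0.0194, lost without any WT mouse or Trf2-/- 2). The count of 8 higher members was itself unsteady, at 3 without WT 1, 3 without WT 2 and 4 without Trf2-/- 2. The count of 19 lower members ran from 15 to 21 when any mouse was left out. The shares of all genes called without a mouse are not given here. Of the members with at least 10 reads but too few for the test, Rnf39 had 10, 11 and 8 reads in WT and 9, 6 and 7 in Trf2-/- mice, and Rnf207 had 1, 5 and 7 against 2, 3 and 6. Rnf186 had 1 read over the 6 libraries together.

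The balance between related members was compared within each mouse. In 8 pairs of paralogs or partners in which both were tested, the values of the within-mouse log2 ratio did not overlap between genotypes, with an exact permutation p of 0.1 for each, the smallest that 3 against 3 mice allow, and 0.1 after Benjamini-Hochberg adjustment over the 8 pairs. No pair could therefore reach a p under 0.05. The share of other gene pairs without overlap was not computed, the pairs were chosen with earlier results known, and 20.2% of all genes were called lower and 11.2% higher, so nothing particular to these pairs is read from it. The differences in the log2 ratio, Trf2-/- minus WT, were -0.98 for Rnf126 to Rnf115, 0.76 for Rnf20 to Rnf40, 0.81 for Rnf144a to Rnf144b and 1.44 for Rnf114 to Rnf125. They were smaller for Rnf5 to Rnf185 (0.31), Rnf13 to Rnf167 (0.26) and Rnf19a to Rnf19b (-0.24). Rnf19a and Rnf19b were both lower, as were Rnf114 and Rnf125, while in the other 6 pairs no more than 1 gene passed the test.

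**Figure D5:**
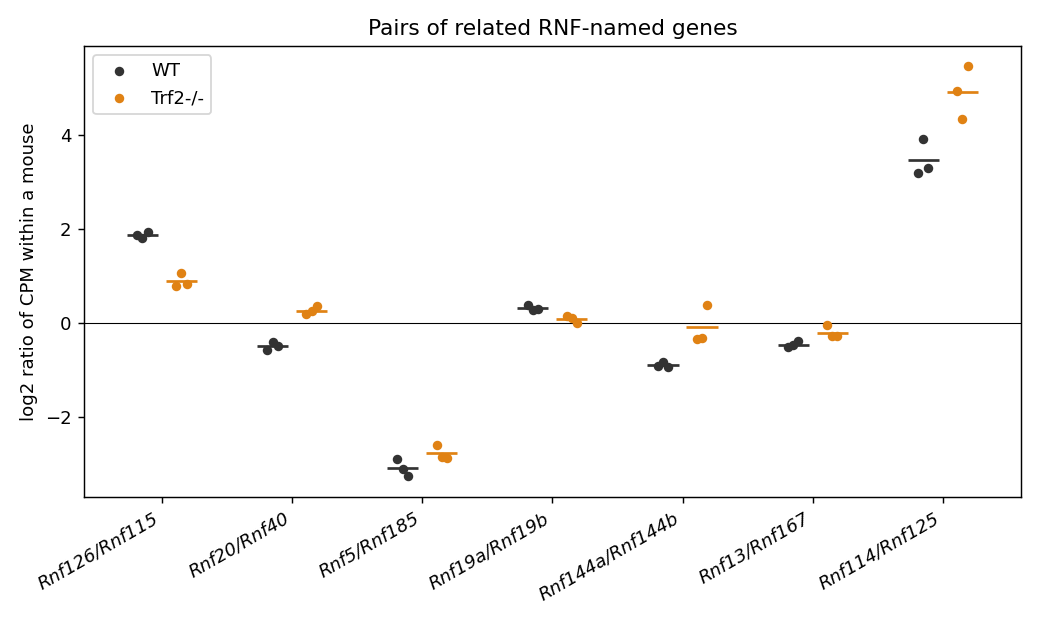
Log2 ratio of the CPM of 2 related RNF-named genes within a mouse (vertical axis) for 7 of the 8 pairs, with 3 WT mice in black and 3 Trf2-/- mice in orange and lines at the means. The ratio of Rnf126 to Rnf115 falls from a mean of 1.87 to 0.89, and that of Rnf20 to Rnf40 crosses 0, from -0.50 to 0.26. The CPM are not corrected for gene length, and per kilobase the mean of Rnf40 stays above that of Rnf20 in both genotypes.

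A promoter window of 250 bases before to 50 bases after the start site was at hand for 59 of the 75 members (RefSeq, GRCm38.p6). A gene counted when any of its windows matched, with 77 windows for these members and 32851 for the 27025 genes set beside them. Those genes were not matched to the members by biotype, level or base content. TGACG, the core of the cAMP response element, was in the windows of 21 of the 59 members (35.6%), beside 23.0% of the 27025 genes. By call, it was in 7 of 13 lower members, namely Rnf144b, Rnf166, Rnf187, Rnf32, Rnf40, Rnf6 and Rnf7, in 1 of 7 higher members, Rnf31, and in 12 of 35 members not past the test. Lower members without a window included Rnf112, Rnf125, Rnf139, Rnf14 and Rnf19a, so the split leaves out several of the largest decreases. A link of the motif with the calls was not tested. TATAAA was in 11 of 59 (18.6%, beside 15.7% of all genes) and CCAAT in 22 of 59 (37.3%, beside 41.1%). The full element TGACGTCA, which contains TGACG on both strands, was in 1 of 59, Rnf7, and in 2.03% of all genes. A match is a description of the letters and not of binding. The promoter of Rnf7 is shown for that element, at 64 bases before the start site, with CCAAT at 42 bases, matches in capitals (250 bases upstream, 5′ to 3′, chr9:96478676-96478925, minus strand).
Rnf7: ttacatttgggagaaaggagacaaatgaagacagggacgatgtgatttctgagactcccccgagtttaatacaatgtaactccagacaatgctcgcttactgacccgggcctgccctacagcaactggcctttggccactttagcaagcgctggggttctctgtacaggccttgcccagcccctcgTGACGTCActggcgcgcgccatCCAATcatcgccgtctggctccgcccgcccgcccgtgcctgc

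Whether reads were counted by strand is not given in the sources used here, and 16 members share exonic bases with a gene on the other strand. Rnf139 shares 97 bases with Tatdn1 (log2 fold change 0.00), Rnf114 129 bases with Spata2 (0.06), Rnf167 189 bases with Slc25a11 (0.05) and Rnf123 937 bases with Gmppb (-0.15), which is 13.9% of its exonic bases, none of those neighbours past the test. Rnf123 also shares 195 bases with Mst1, and Rnf152 shares 368 bases with Gm17634, which had 8 reads in all. On the same strand, Rnf31 shares 123 bases with Irf9 and Rnf169 shares 224 bases with RP23-428N8.1. For Rnf146, 52.1% of the exonic bases lie opposite Echdc1, so its log2 fold change of 0.07 ± 0.06 is uncertain.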

How the data were processed

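Per the labels and the methods, total RNA of 3 WT and 3 Trf2-/- testes was depleted of ribosomal RNA and made into stranded libraries, sequenced as single-end reads of 50 bases. The authors aligned them to mm9 (NCBIM37) and deposited raw read counts per gene. The submitters' processing notes name CASAVA 1.8.2, TopHat2 2.0.10, Bowtie2 2.1.0, HTSeq 0.5.4p3 and DESeq2 1.0.19. The strand setting of the counter and its treatment of reads shared between paralogs are not given in the sources used here. A further 12 columns of normalized values per mouse were not used.

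The whole table was filtered with filterByExpr and tested with edgeR 4.0.16 in R 4.3.3 (TMM factors, glmQLFit, glmQLFTest, Benjamini-Hochberg adjustment over 16924 genes, which held 99.9% of the reads). The standard error is the size of the log2 fold change over the square root of F. The replicates are independent mice per the methods. Ratios of 2 members were compared by exact two-sided permutation over mice. The step was tested on simulated data with 200 changed genes among 16924. There edgeR called 86.5% of the changed genes with 20 false calls, and DESeq2 called 84% with 28 false calls. On the real data, DESeq2 1.42.0, other scalings and filters, the replicate number as a block and leaving out each mouse were tried. No 2 libraries were alike within counting noise. Floors cover counting error only, since the reads carry no molecular identifiers.

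Members were named where they passed the 2-fold call, were named by the rule (Rnf126), had a high WT level or belonged to a role group or pair. The largest decreases and increases past the test, up to 10 each, were also named. Those lists required no overlap between genotypes and at least 10 counts in each mouse of 1 genotype. No overlap held for all 27 called members, and its share among all genes tested is not given here. Any other member past the test was added after its values were seen. Exon overlaps were taken from an annotation of the same build. Protein sequences were not analysed here. The values of 1 member past the test, and of its pair, are not reported here, though the counts include it. The members, lists and promoter motifs were chosen with earlier results of these data known.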

Additional observations from a re-analysis of the deposited data

How the results depend on the processing

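The 8 higher members became 22 with library size alone and 1 at an adjusted p under 0.01, and ran from 3 to 7 when any mouse was left out. The 2 members lower by at least 2-fold became 1 where each mouse had to have 10 counts, a filter that Rnf151 does not pass, and ran from 2 to 4 when any mouse was left out. The count of lower members stayed within 14 to 21 under the alternatives run. The matching shares of all genes tested are not given here. The sign of the log2 fold change was followed in 52 of the 70 tested members, each called member included. Among them it changed only in members that did not pass the test. With library size alone the log2 fold change became 0.017 for Rnf138, 0.057 for Rnf26, 0.082 for Rnf141 and 0.088 for Rnf185. Leaving out any mouse gave -0.13 to 0.070 for Rnf26, -0.055 to 0.0081 for Rnf185, -0.025 to 0.032 for Rnf181, -0.023 to 0.049 for Rnf216, -0.032 to 0.23 for Rnf150 and -0.021 to 0.21 for Rnf43. With the replicate block 18 members were lower and 7 higher, and the calls of Rnf114, Rnf135 and, among the E2 genes, Ube2e3 were lost. Mice of the same number did not deviate together (correlations of -0.10, -0.03 and -0.10), so the numbers were not taken to pair the mice. The log2 ratios of the 8 pairs kept their direction without any mouse and with raw counts. Depth limits the 14 tested members under 10 CPM and the 5 that were not tested. The cause of these differences between settings was not tested.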
